A study of Mus musculus with 6 samples.

Results

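The cluster of miR-183, miR-96 and miR-182 is a group of 3 microRNAs (miRNAs) that are made from neighbouring hairpins and are best known from sensory cells. Its 5p strands, mmu-miR-183-5p, mmu-miR-96-5p and mmu-miR-182-5p (below without the prefix for mouse), were followed in a table of small RNAs bound to Argonaute proteins in mouse brain. Members were the rows whose miRNA label equalled 1 of these names, which gave 3 of 1101 miRNA labels and 645 of 143934 read sequences. No row of a member carried a further miRNA label. The study compared the small RNA content of the RNA-induced silencing complex (RISC) of young and old brain. Cortex and hippocampus combined were taken from BL6 mice of 2 months (2M) and 18 months (18M), 3 libraries per age, and the methods of the study describe these mice as purchased C57BL/6J males. They carried no transgene or deletion and were given no treatment, and age was the stated difference between the groups. Argonaute proteins (Ago1-4) were pulled down with a peptide of GW182, a protein that binds them, and the bound RNA was sequenced (Ago-RP-Seq). Values are in RPM, reads scaled to the same total in each library, and are thus shares of a library.

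miRNAs of this cluster are transcribed together as a single precursor RNA, from which Drosha and Dicer cut each mature miRNA. In RISC, the seed near the 5′ end of the miRNA pairs with target mRNAs, so miRNAs with like seeds can share targets. The cluster is abundant in photoreceptors, hair cells of the inner ear, olfactory sensory neurons, sensory ganglion neurons and the pineal gland, and a mutation in the seed of miR-96 causes hearing loss. Cortex and hippocampus are not among the tissues it is named for. Because whole tissue was used, fewer cells of a type and less RNA per cell cannot be told apart.

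The mature sequences from RefSeq (GRCm38.p6) are given because they show what the members share, with bases 2 to 8, the seed, in capitals.
miR-183-5p: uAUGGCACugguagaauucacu
miR-96-5p: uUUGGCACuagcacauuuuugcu
miR-182-5p: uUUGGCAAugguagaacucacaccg
miR-96-5p and miR-182-5p were identical over their first 7 bases and so shared the 6mer seed (bases 2 to 7), but not base 8. miR-183-5p had neither the 6mer nor the longer seed of the other members. Along the whole sequence the relation was different, since miR-183-5p and miR-182-5p had the same base at 18 of 22 positions, against 12 of 23 for miR-96-5p and miR-182-5p and 13 of 22 for miR-183-5p and miR-96-5p. The capitals above thus place miR-96-5p beside miR-182-5p, and the lower-case part places miR-183-5p beside miR-182-5p.

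The hairpins lie on the minus strand of chromosome 6 (GRCm38.p6), with Mir183 at chr6:30169668-30169737, Mir96 at chr6:30169446-30169551 and Mir182 at chr6:30165918-30165992. The gap between Mir183 and Mir96 was 116 bases and that between Mir96 and Mir182 was 3453 bases. All 3 lie within the bounds of Mirc35hg, a long non-coding RNA gene at chr6:30158640-30174125 on the same strand.

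Between 19272046 and 25080484 reads were recovered per library, so a floor of 3 reads was at most 0.156 RPM and every member stood far above it. No pair of libraries was a duplicate. A fold change is on the log2(RPM + 1) scale, with its standard error (SE), and compares 18M with 2M. The labels do not state whether libraries of an age were prepared together, so p-values measure the spread between these libraries only. Among all miRNAs with a mean of at least 10 RPM, 180 of 474 had a fold change above 0 and the median log2 fold change was -0.07.

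All 3 members were well represented in Ago-bound RNA of cortex and hippocampus. miR-182-5p was the most abundant, at a mean of 2775 RPM over the 6 libraries (rank 64 of 1101 labels), followed by miR-96-5p at 1889 RPM (rank 77) and miR-183-5p at 1175 RPM (rank 97). The order miR-182-5p, miR-96-5p, miR-183-5p was found in 6 of 6 libraries. Since each value is a count of ligated reads, it also depends on how well each end of the miRNA was ligated, which was not measured. Summed, the cluster made up between 0.455% and 0.900% of all reads of a library. Its sum was 4718, 5429 and 5472 RPM in the 2M libraries and 5871, 9002 and 4545 RPM in the 18M libraries, so the old group held both the highest and the lowest value.

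No member differed between the ages beyond the spread between libraries. miR-183-5p stood at 1047, 995.2 and 1179 RPM in 2M replicates 1 to 3 and at 1085, 1995 and 751.5 RPM in 18M replicates 1 to 3. Its 18M libraries lay on both sides of all 2M libraries, and 18M replicate 2 was the highest. The means were 1074 ± 94.95 RPM (SD, n = 3) at 2M and 1277 ± 643 RPM (SD, n = 3) at 18M. Its log2 fold change was 0.14 (SE 0.34, limma adjusted p = 0.855).

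miR-182-5p behaved in the same way. It stood at 2363, 2499 and 2603 RPM at 2M and at 2547, 4583 and 2058 RPM at 18M. Again a single old library was far above the others and another was below all of them. The means were 2489 ± 120 RPM (SD, n = 3) at 2M and 3062 ± 1339 RPM (SD, n = 3) at 18M, a log2 fold change of 0.21 (SE 0.29, limma adjusted p = 0.737).

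Of the 3 members, miR-96-5p had the largest fold change, and its spread was the smallest at 18M and the largest at 2M. It stood at 1308, 1935 and 1690 RPM at 2M and at 2239, 2425 and 1736 RPM at 18M. The groups overlapped because 18M replicate 3 fell below 2M replicate 2, while 18M replicates 1 and 2 were above all young libraries. The means were 1644 ± 316 RPM (SD, n = 3) at 2M and 2133 ± 357 RPM (SD, n = 3) at 18M, a log2 fold change of 0.38 (SE 0.20, limma adjusted p = 0.377). Thus 0 of 3 members passed an adjusted p of 0.05 and 0 of 3 were without overlap, where 23 of 474 tested miRNAs (4.85%) passed and 118 of 474 (24.9%) had groups that did not overlap in either direction. At an unadjusted p under 0.05 the counts were 0 of 3 members and 85 of 474 miRNAs. Neither the edgeR quasi-likelihood test nor DESeq2 on the recovered reads called a member. Their log2 fold changes were larger than those of limma. In edgeR and DESeq2 they were 0.36 and 0.37 for miR-183-5p, 0.47 and 0.48 for miR-96-5p, and 0.41 and 0.42 for miR-182-5p.

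**Figure D1:**
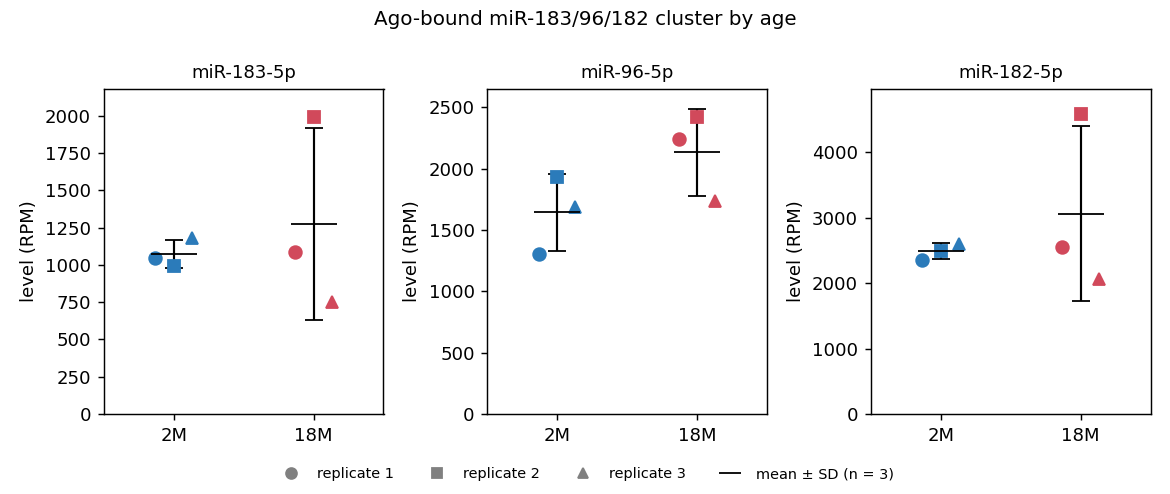
RPM of miR-183-5p, miR-96-5p and miR-182-5p (y axis, from 0) in the 3 libraries of 2M and of 18M, with points for libraries and bars for mean ± SD. For miR-183-5p and miR-182-5p, 18M replicate 2 is the highest of all 6 libraries (1995 and 4583 RPM) and 18M replicate 3 the lowest (751.5 and 2058 RPM), whereas the libraries of miR-96-5p are spread more evenly.

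The spread between libraries of the same age was wide for miR-183-5p and miR-182-5p at 18M only. Their SDs were 643 and 1339 RPM at 18M, against 357 RPM for miR-96-5p. At 2M their SDs were 94.95 and 120 RPM, below the 316 RPM of miR-96-5p. Pooled over both ages, the SD of log2(RPM + 1) within an age was 0.51 for miR-183-5p, 0.43 for miR-182-5p and 0.27 for miR-96-5p. The median was 0.20 over the 474 tested miRNAs. Of the tested miRNAs, 90.5% had a smaller spread than miR-183-5p, 84.4% a smaller one than miR-182-5p and 67.3% a smaller one than miR-96-5p.

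**Figure D2:**
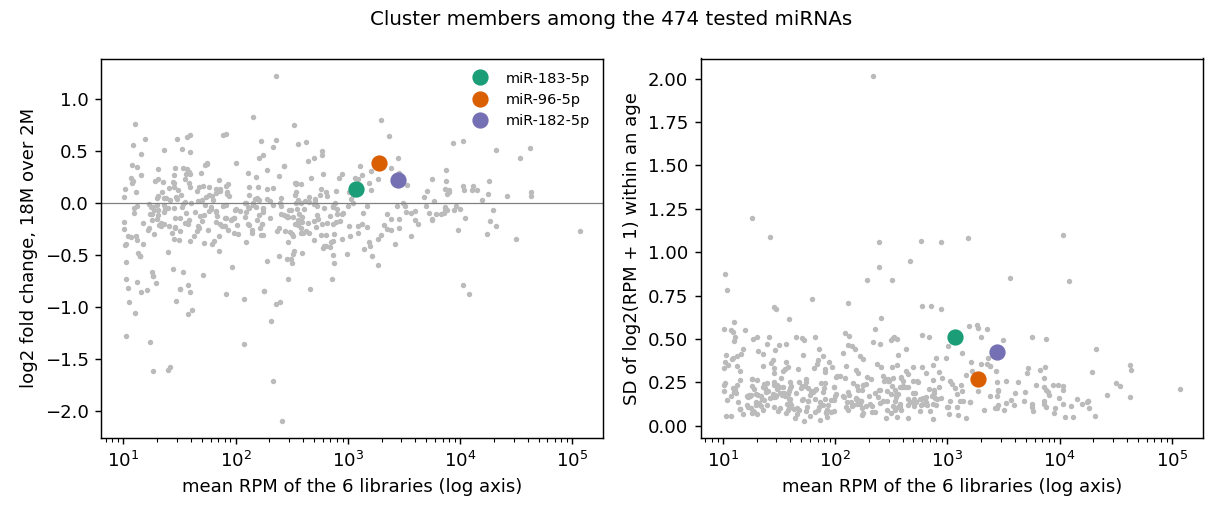
Log2 fold change of 18M over 2M (left) and SD of log2(RPM + 1) within an age (right) against mean RPM (log axis) for the 474 tested miRNAs in grey, with the 3 members coloured. The members lie slightly above 0 on the left (0.14, 0.38 and 0.21), and on the right miR-183-5p and miR-182-5p (SD 0.51 and 0.43) lie above most miRNAs. The SD is pooled over both ages.

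The highest library of all 3 members was 18M replicate 2. In that library miR-183-5p was 1.97-fold, miR-182-5p 1.90-fold and miR-96-5p 1.36-fold the mean of the other 5 libraries, whereas the median over the 474 tested miRNAs was 0.889-fold. Ranked by this ratio, miR-183-5p ranked 1 and miR-182-5p ranked 3 of 474, with miR-344-3p (1.94-fold) between them and miR-210-3p (1.89-fold) next; the latter pair is named after its values were seen. miR-96-5p ranked 21. Over all tested miRNAs, 18M replicate 2 was the highest library for 53 of 474 (11.2%), so it was not high in general.

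Without 18M replicate 2, the direction of the age difference turned for both. The log2 fold change became -0.25 for miR-183-5p (limma adjusted p = 0.536) and -0.12 for miR-182-5p (limma adjusted p = 0.684), while it was 0.28 for miR-96-5p. The sum of the 3 members was 1266 RPM higher at 18M in all 6 libraries and 1.3 RPM higher without that library. Without 18M replicate 3, the lowest library of miR-183-5p and miR-182-5p, the log2 fold changes were 0.46 for miR-183-5p, 0.52 for miR-96-5p and 0.46 for miR-182-5p, and none passed the limma test. Over all settings and tools, the lowest adjusted p of any member was 0.251, from DESeq2 for miR-96-5p. A direction with age for miR-183-5p and miR-182-5p was therefore not detectable in these libraries.

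Although the levels varied, miR-183-5p and miR-182-5p kept nearly the same proportion to each other. The ratio of miR-183-5p to miR-182-5p was 0.443, 0.398 and 0.453 at 2M and 0.426, 0.435 and 0.365 at 18M, while the highest library was 2.65-fold the lowest for miR-183-5p and 2.23-fold for miR-182-5p. The ratio of miR-96-5p to miR-182-5p ranged more widely, at 0.553, 0.774 and 0.649 at 2M and 0.879, 0.529 and 0.844 at 18M. The ratio of miR-96-5p to miR-183-5p was 1.25, 1.94 and 1.43 at 2M and 2.06, 1.22 and 2.31 at 18M. It was lowest in 18M replicate 2, where miR-183-5p and miR-182-5p were highest.

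None of these ratios passed the test between the ages. The difference of the log2 ratio between 18M and 2M was -0.08 for miR-183-5p over miR-182-5p (exact permutation test, p = 0.5), 0.17 for miR-96-5p over miR-182-5p (exact permutation test, p = 0.6) and 0.24 for miR-96-5p over miR-183-5p (exact permutation test, p = 0.5). With 3 libraries against 3, this two-sided test cannot give a p below 0.1, and p-values were adjusted over 15 tests of ratios and read forms (adjusted p = 0.577, 0.643 and 0.577). As a description over 6 libraries, the Pearson correlation of log2(RPM + 1) was 0.97 between miR-183-5p and miR-182-5p, 0.53 between miR-183-5p and miR-96-5p and 0.64 between miR-96-5p and miR-182-5p. Leaving out 18M replicate 2, these were 0.95, 0.02 and 0.29. The values share their libraries and their scaling. Of the 3 pairs, miR-183-5p and miR-182-5p had the highest correlation, with and without 18M replicate 2. What sets these correlations was not tested.

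The opposite strands of the hairpins, the 3p strands that are mostly discarded when RISC is loaded, were rare. miR-183-3p was at 22.96, 17.94 and 26.30 RPM at 2M and at 20.49, 31.81 and 18.37 RPM at 18M, and its groups overlapped (log2 fold change 0.05, SE 0.24, limma adjusted p = 0.926). The 5p strand made up 97.6% to 98.4% of the reads of Mir183 and at least 99.6% of those of Mir96 and Mir182. Per read of the 3p strand there were 40.9 to 62.7 reads of miR-183-5p, 298 to 471 of miR-96-5p and 245 to 443 of miR-182-5p, and the ages overlapped for each.

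The 3p strands of miR-96 and miR-182 had means under 10 RPM and were not tested. miR-96-3p stood at 3.86, 4.11 and 3.67 RPM at 2M and at 6.64, 8.15 and 4.75 RPM at 18M. miR-182-3p stood at 5.34, 7.33 and 7.67 RPM at 2M and at 8.56, 12.2 and 8.41 RPM at 18M. For both, every 18M library was above every 2M library, which was also seen, in either direction, for 24.9% of the miRNAs of at least 10 RPM. In 18M replicate 2 the 3p strands were high along with the 5p strands, at 1.5-fold (miR-183-3p), 1.77-fold (miR-96-3p) and 1.64-fold (miR-182-3p) the mean of the other 5 libraries.

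The miRNAs whose levels across libraries were most like the cluster came mainly from the miR-200 family, which is known from olfactory neurons and epithelia. By Pearson correlation of log2(RPM + 1) with the mean of the 3 members, over 6 libraries and among 471 other miRNAs, the 5 highest were miR-141-5p (0.99), miR-200b-5p (0.89), miR-200a-3p (0.82), miR-434-3p (0.80) and miR-200b-3p (0.80). All but miR-434-3p belong to the miR-200 family, and miR-141-5p and miR-200b-5p are its minor strands. miR-141-5p was at 43.1, 44.0 and 46.8 RPM at 2M and at 47.7, 64.6 and 39.6 RPM at 18M, so its highest and lowest libraries were those of miR-183-5p and miR-182-5p.

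Part of this likeness rested on 18M replicate 2. Without it, the correlation was 0.95 for miR-141-5p, which stayed at rank 1 of 471, 0.88 for miR-200a-3p (rank 3), 0.71 for miR-200b-5p (rank 17) and 0.55 for miR-200b-3p (rank 32). It was -0.15 for miR-434-3p, a miRNA of the imprinted Dlk1-Dio3 region on another chromosome, which thereby dropped to rank 255. In 18M replicate 3, the low library, miR-200a-3p was also at its lowest (13630 RPM, against 18040 to 24120 RPM in the other 5). These are correlations over 6 libraries or fewer, described without a test.

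**Figure D3:**
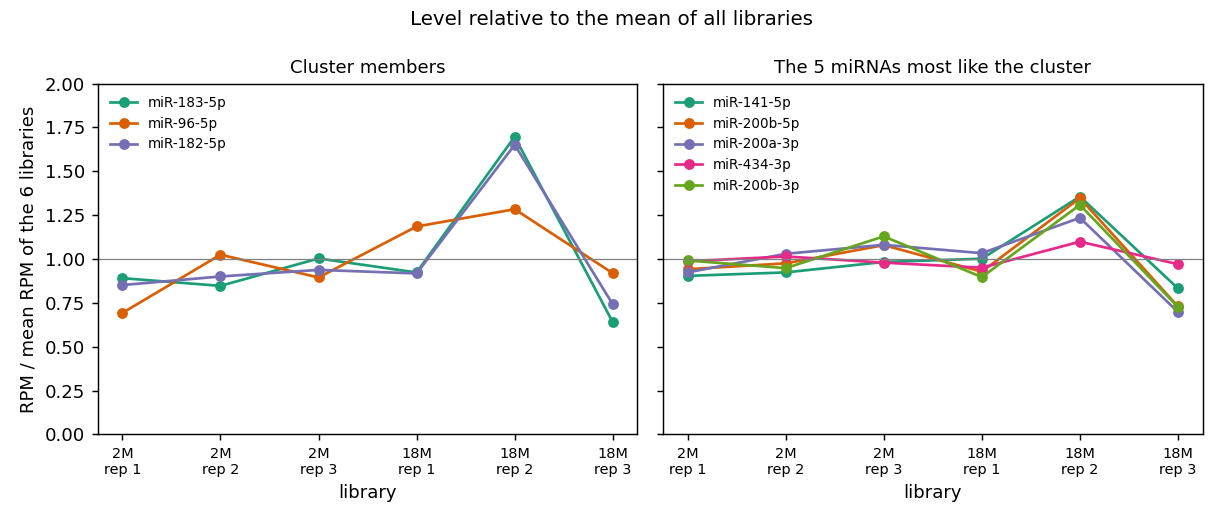
RPM of each miRNA divided by its mean over the 6 libraries (y axis), by library (x axis), for the 3 members (left) and for the 5 miRNAs most like them (right), with lines joining the libraries of a miRNA for the eye only. The lines of miR-183-5p and miR-182-5p nearly coincide and peak in 18M replicate 2. miR-96-5p departs from them in several libraries, among them 18M replicate 1 (2239 RPM), 18M replicate 2 (2425 RPM) and 18M replicate 3 (1736 RPM). The 4 miR-200 miRNAs shown also peak in 18M replicate 2 and are lowest in 18M replicate 3.

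Lists of miRNAs that mark cell types or neighbouring tissue were examined beside the cluster. The list for olfactory and epithelial cells (miR-200a-3p, miR-200b-3p, miR-200c-3p, miR-141-3p and miR-429-3p) had 5 of 5 members tested, none called, and a median log2 fold change of -0.11. Its summed level was 37770 to 44970 RPM at 2M and 28950 to 48010 RPM at 18M, with 1.25-fold the mean of the others in 18M replicate 2. Its correlation with the cluster over 6 libraries was 0.78. miR-141-3p, the main strand of the hairpin that gives miR-141-5p, went against this, at 4080, 4322 and 5175 RPM at 2M and at 4969, 3450 and 3452 RPM at 18M. It was at its lowest in 18M replicate 2 (0.784-fold the mean of the other 5 libraries). In 18M replicate 3, the low library of miR-183-5p and miR-182-5p, miR-141-3p was at nearly the same level. The list for sensory organs and the pineal gland was dominated by miR-204-5p, which the choroid plexus also makes, and its sum was 2553 to 3019 RPM at 2M and 2647 to 2919 RPM at 18M. It was 0.94-fold in 18M replicate 2, and 2 of its 5 members were tested, none called. None of its members was at 0, but miR-216b-5p and miR-217-5p were at most 5.58 and 4.66 RPM in any library.

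In 18M replicate 2, the remaining list sums were below the mean of the other 5 libraries, apart from that of forebrain neurons. That list, miR-124-3p and 5 others, summed to 238600 to 253800 RPM at 2M and 214200 to 270300 RPM at 18M (1.15-fold in 18M replicate 2, 6 of 6 tested, 0 called). In it, miR-124-3p (134300 RPM) and miR-9-5p (56100 RPM) were highest in 18M replicate 2. This was not so for miR-128-3p, miR-132-3p, miR-138-5p and miR-137-3p. Erythrocyte miRNAs, led by miR-451a, summed to 1300 RPM in 18M replicate 2 against 2461 to 3677 RPM in the others (0.43-fold, 3 of 3 tested, 0 called). Of these, miR-451a and miR-144-3p were lowest in 18M replicate 2. miR-486a-5p was not, at 187.5 RPM there against 146.4 to 186.0 RPM in the others. Pituitary miRNAs, miR-7a-5p, miR-7b-5p and miR-375-3p, summed to 3342 RPM in 2M replicate 1 against 414 to 484 RPM elsewhere (3 of 3 tested, 0 called), and 2M replicate 1 was not high for any member of the cluster. The sums in 18M replicate 2 were 0.76-fold for oligodendrocytes (3 of 3 tested) and 0.77-fold for microglia and immune cells (5 of 6 tested). They were 0.91-fold for choroid plexus and ciliated cells (5 of 5 tested) and 0.52-fold for hindbrain and spinal cord (2 of 4 tested). No member of these was called. The first 2 sums did not hold for each member. miR-219a-5p, miR-150-5p, miR-142a-3p and miR-142a-5p were lowest in 18M replicate 2. In contrast, miR-338-3p (5129 RPM) and miR-146a-5p (375.5 RPM) lay within the range of the other libraries, and miR-155-5p was highest there (5.88 RPM). For hindbrain and spinal cord the fold reflects high values at 2M (17.39, 133.8 and 79.77 RPM). Among the 18M libraries its sum was highest in replicate 2, at 26.74 RPM against 13.64 and 11.33 RPM in replicates 1 and 3. Over 6 libraries, the correlation with the cluster was 0.631 for forebrain neurons and 0.121 for hindbrain and spinal cord. It was between -0.723 (microglia and immune cells) and -0.295 (sensory organs and pineal gland) for every other list except the olfactory and epithelial one. How far any of these tissues contributed to the level of the cluster was not tested.

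Beyond their level, the members differed in the forms of their reads. A miRNA can be cut or trimmed at other positions than its reference form, and such isomiRs keep the seed when the 3′ end varies and shift it when the 5′ end varies. miR-183-5p and miR-96-5p were each dominated by their RefSeq form, which made up 55.1% of the reads of miR-183-5p (22 nt) and 59.4% of those of miR-96-5p (23 nt). miR-182-5p had no dominant form. Its 6 most abundant reads all started at the RefSeq 5′ end and were 22, 21, 25, 20, 23 and 24 nt long, with 21.7%, 19.1%, 14.0%, 13.3%, 11.9% and 9.94% of its reads. Of these, 3 are given to show the range, with the 6mer seed that they share in capitals.
miR-182-5p, 25 nt: tTTGGCAatggtagaactcacaccg
miR-182-5p, 22 nt: tTTGGCAatggtagaactcaca
miR-182-5p, 20 nt: tTTGGCAatggtagaactca
The RefSeq form is the 25 nt read, so 84.0% of miR-182-5p reads were shorter than it. This share was above that of 96.1% of the 228 miRNAs of at least 100 RPM with a RefSeq hairpin (of 276 at that level), whose median was 30.7%. The share depends on the length of the RefSeq form, and the reads of miR-182-5p were not short. Their mean length of 22.34 nt was above that of 84.6% of the same miRNAs (median 21.79 nt).

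The reads of miR-182-5p were shorter in all old brains than in all young brains. Reads under 25 nt made up 82.9%, 81.2% and 80.8% at 2M and 87.3%, 85.3% and 86.2% at 18M, without overlap. This was a difference of 4.63 percentage points (81.6% ± 1.10 against 86.3% ± 1.01, SD, n = 3, exact permutation test, p = 0.1, the smallest possible, adjusted p = 0.333). Reads over 25 nt made up 1.63%, 1.77% and 1.85% at 2M and 0.921%, 1.09% and 1.10% at 18M, where the groups were likewise apart (exact permutation test, p = 0.1, adjusted p = 0.333). Neither passed the adjusted threshold, which 3 libraries against 3 cannot reach here.

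The shift ran through the whole length distribution of miR-182-5p. Each length from 18 to 22 nt had a higher share in every 18M library than in any 2M library, and each length from 23 to 27 nt a lower one. The largest differences were at 25 nt, with 16.6% ± 0.992 at 2M and 12.7% ± 0.924 at 18M (SD, n = 3), and at 20 nt, with 12.2% ± 0.705 and 15.4% ± 0.408 (SD, n = 3). Its mean length was 22.43, 22.53 and 22.53 nt at 2M and 22.13, 22.23 and 22.18 nt at 18M. 18M replicates 2 and 3, which held the highest and the lowest level of miR-182-5p, had nearly the same lengths. These shares add up to the whole, so the lengths are not independent of each other.

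miR-183-5p and miR-96-5p differed by less and overlapped between the ages in the share of shorter reads. For miR-183-5p, reads under 22 nt made up 24.5%, 22.5% and 21.4% at 2M and 25.7%, 24.4% and 27.5% at 18M (exact permutation test, p = 0.2, adjusted p = 0.333). For miR-96-5p, reads under 23 nt made up 32.7%, 33.6% and 35.5% at 2M and 35.6%, 41.9% and 34.9% at 18M (exact permutation test, p = 0.2, adjusted p = 0.333). The mean lengths did not overlap, at 21.87 to 21.92 nt against 21.81 to 21.82 nt for miR-183-5p and 22.53 to 22.56 nt against 22.34 to 22.50 nt for miR-96-5p. With miR-182-5p, 3 of 3 members were thus without overlap in mean length, against 18.9% of the 228 miRNAs (10 longer and 33 shorter at 18M). Ranked from the largest gain in mean length to the largest loss, miR-182-5p (a difference of -0.316 nt) had rank 228 of 228, miR-96-5p rank 202 and miR-183-5p rank 192, a ranking added after the values were seen. Thus 1 of 3 members was without overlap in shorter reads, and 1 of 3 in longer reads. Among the 228 miRNAs, 15.8% had no overlap in the share of shorter reads (26 higher and 10 lower at 18M) and 17.5% in that of longer reads. The gain of shorter reads had rank 21 of 228 for miR-182-5p, rank 40 for miR-96-5p and rank 45 for miR-183-5p, with a median difference of 0.458 percentage points over all 228.

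**Figure D4:**
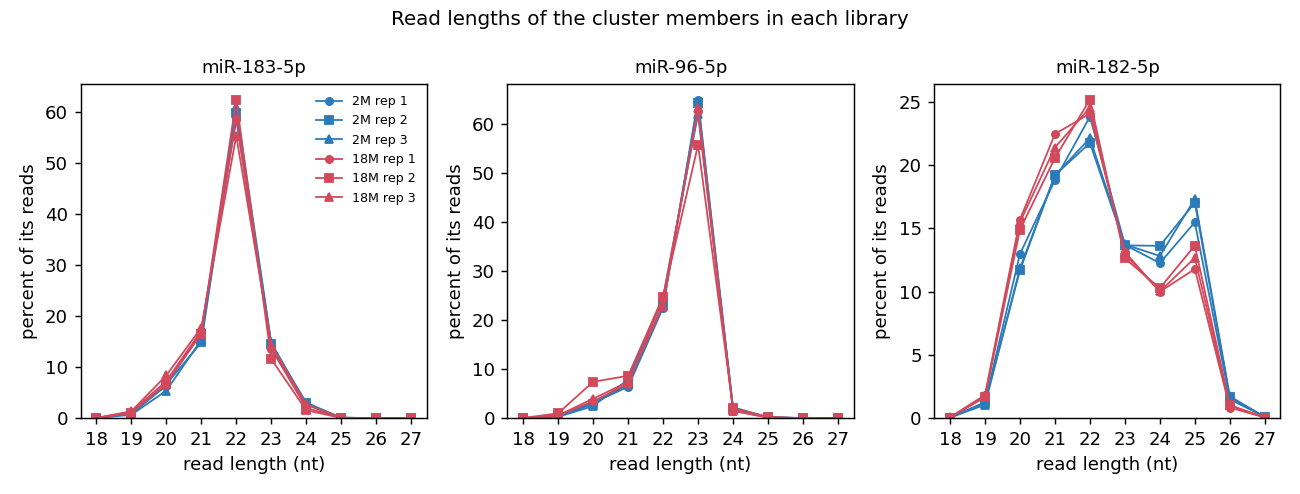
Percent of the reads of each member (y axis) by read length in nt (x axis), with a line for each library, 2M in blue and 18M in red. miR-183-5p and miR-96-5p peak at 22 and 23 nt in all libraries, and the broad profile of miR-182-5p is split by age, with 18M higher from 18 to 22 nt and lower from 23 to 27 nt.

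miR-183-5p differed from the other members at its 5′ end. In all, 17.2% of its reads started at another base than the RefSeq form, against 2.26% for miR-96-5p and 2.39% for miR-182-5p, and this was above the share of 81.6% of the 228 miRNAs (median 3.02%). Nearly all of these reads lacked the first base. Among the 3 most abundant reads of miR-183-5p, that with 8.17% of its reads is such a form, and it is set below the RefSeq form, with read positions 2 to 7 in capitals.
miR-183-5p, RefSeq start: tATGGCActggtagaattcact
miR-183-5p, start 1 base later: aTGGCACtggtagaattcact
Without the first base, the 6mer seed AUGGCA of the read is replaced by UGGCAC. A read of miR-96-5p that lacks its first base carries the latter seed too.

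The share of shifted starts of miR-183-5p was higher in all old libraries. Reads with another start made up 16.46%, 16.45% and 16.58% at 2M and 17.92%, 17.84% and 18.02% at 18M. The difference of 1.43 percentage points was large beside the spread within an age (16.5% ± 0.071 and 17.9% ± 0.094, SD, n = 3), and 18M replicates 2 and 3 lay close together although their levels of miR-183-5p differed 2.65-fold. The exact permutation test gave p = 0.1, the smallest it allows (adjusted p = 0.333). Reads starting 1 base later accounted for it, at 14.91%, 15.02% and 15.25% at 2M and 16.46%, 16.39% and 16.78% at 18M.

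In the other members the ages overlapped. The share of shifted starts was 2.41% ± 0.406 at 2M and 2.11% ± 0.301 at 18M (SD, n = 3) for miR-96-5p (exact permutation test, p = 0.3, adjusted p = 0.409) and 2.40% ± 0.059 and 2.38% ± 0.076 (SD, n = 3) for miR-182-5p (exact permutation test, p = 0.8, adjusted p = 0.8). Thus 1 of 3 members was without overlap, against 14.0% of the 228 miRNAs. The difference of miR-183-5p had rank 17 of 228.

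**Figure D5:**
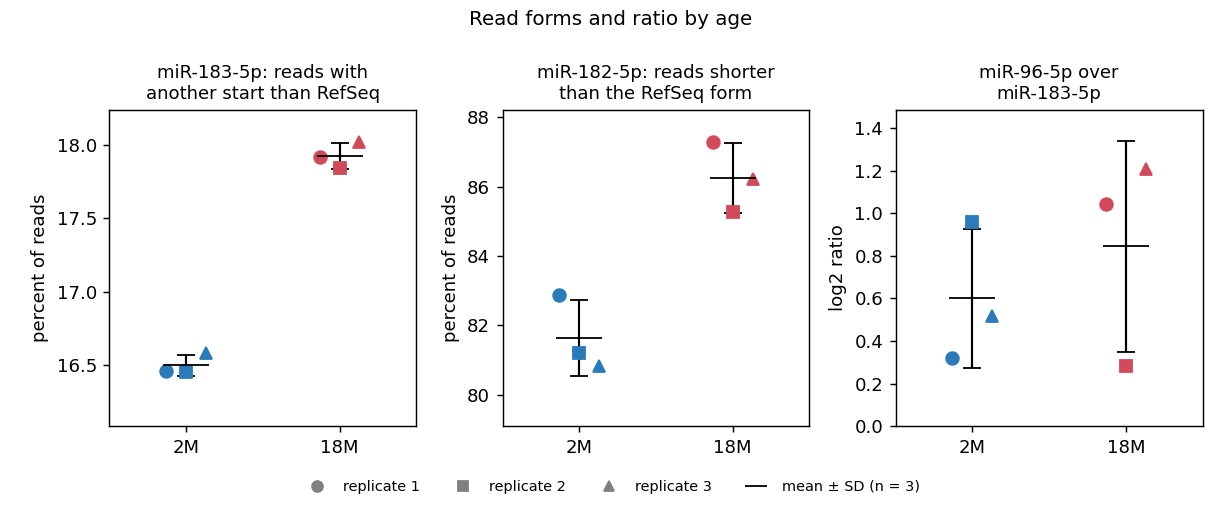
Percent of miR-183-5p reads with another start than the RefSeq form (left), percent of miR-182-5p reads shorter than the RefSeq form (middle) and log2 ratio of miR-96-5p to miR-183-5p (right) for the 3 libraries of each age, with mean ± SD. The left and middle y axes do not start at 0. The ages are apart in the left (16.45% to 16.58% against 17.84% to 18.02%) and middle panels (80.8% to 82.9% against 85.3% to 87.3%) and overlap in the right panel.

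Reads that did not lie unbroken in the hairpin, which include non-templated 3′ tails and mismatches, were a small share of each member. For miR-183-5p they were 4.91%, 4.55% and 4.58% at 2M and 5.03%, 5.25% and 5.82% at 18M, without overlap (exact permutation test, p = 0.1, adjusted p = 0.333). The groups overlapped for miR-96-5p (5.80% ± 0.523 and 6.81% ± 1.04, SD, n = 3) and for miR-182-5p (7.32% ± 0.702 and 6.82% ± 0.133, SD, n = 3). This made 1 of 3 members without overlap, against 22.8% of the 228 miRNAs, of which 166 had a higher share at 18M (median difference 0.524 percentage points). Tails of up to 3 bases were higher at 18M without overlap for 2 of 3 members, miR-183-5p (2.97% to 3.23% against 3.49% to 4.32%) and miR-96-5p (3.92% to 4.81% against 4.92% to 6.46%). They overlapped for miR-182-5p (5.58% to 7.12% against 5.45% to 5.89%). Of the 228 miRNAs, 24.6% were without overlap in the share of tails, 45 higher and 11 lower at 18M, and the median difference was 0.507 percentage points.

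No single read sequence of a member was called in limma, of 30 with a mean of at least 10 RPM, where 12 of 3281 reads (0.366%) were. At an unadjusted p under 0.05 the counts were 5 of 30 and 428 of 3281. The RefSeq form of miR-183-5p was at 566.8, 549.3 and 657.0 RPM at 2M and at 577.7, 1160 and 377.4 RPM at 18M (log2 fold change 0.10, SE 0.38, limma adjusted p = 0.925). That of miR-96-5p was at 818.3, 1204 and 1012 RPM at 2M and at 1350, 1285 and 1060 RPM at 18M (log2 fold change 0.29, SE 0.19, limma adjusted p = 0.515). The former was highest in 18M replicate 2, as was the summed miR-183-5p, and the latter in 18M replicate 1, unlike the summed miR-96-5p.

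Within miR-182-5p the fold change followed the length of the read. The 22 nt read was at 517.9, 492.6 and 530.2 RPM at 2M and at 558.1, 1048 and 458.2 RPM at 18M (log2 fold change 0.33, SE 0.30). The 25 nt read was at 353.1, 411.4 and 424.9 RPM at 2M and at 290.2, 603.8 and 252.0 RPM at 18M (log2 fold change -0.16, SE 0.33). The 20 nt read, named after its values were seen, was at 294.2, 280.8 and 297.1 RPM at 2M and at 384.8, 658.2 and 306.4 RPM at 18M, without overlap (log2 fold change 0.55, SE 0.28). Their limma adjusted p-values were 0.6402, 0.8499 and 0.4204.

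The lowest unadjusted p of any member's read belonged to a tailed read of miR-96-5p, again named after its values were seen. It has 21 templated bases followed by an added A.
miR-96-5p, tailed read: tTTGGCActagcacatttttga
This read was at 15.4, 17.3 and 17.0 RPM at 2M and at 26.7, 47.4 and 29.7 RPM at 18M. The groups did not overlap, and its log2 fold change was 0.97 (SE 0.23, limma unadjusted p = 0.00339, adjusted p = 0.175).

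The study scored each read by the viability of its 6mer seed, that is, by how many cells (in percent) survive an siRNA carrying the seed, as the mean of 3 mouse lines, and seeds of low viability are called toxic. The seed of miR-182-5p and miR-96-5p, UUGGCA, had a viability of 52.5%, that of miR-183-5p, AUGGCA, 69.0%, and the shifted UGGCAC 40.0%. The cluster supplied nearly all Ago-bound reads of these seeds. miR-182-5p gave 58.6% and miR-96-5p 39.9% of the UUGGCA reads, and miR-183-5p gave 96.7% of the AUGGCA reads. For UGGCAC, 83.9% came from miR-183-5p, 9.13% from miR-96-5p and 4.24% from miR-29b-3p. No other miRNA label had 1 of these seeds in its most abundant read.

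None of the 3 seeds passed the test between the ages, adjusted or at an unadjusted p under 0.05, where 10 of 1105 seeds (0.905%) had an adjusted p under 0.05. UUGGCA was at 3631, 4390 and 4239 RPM at 2M and at 4737, 6926 and 3754 RPM at 18M (log2 fold change 0.29, SE 0.23, limma adjusted p = 0.616). AUGGCA was at 904.6, 861.9 and 1015 RPM at 2M and at 917.8, 1675 and 638.2 RPM at 18M (log2 fold change 0.10, SE 0.33, limma adjusted p = 0.911). Both had 18M replicate 2 as the highest library, as had the miRNAs that supply them. Without that library, the log2 fold change was 0.05 for the former seed and -0.27 for the latter.

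UGGCAC, the least viable of these seeds, was rare, at 186.0, 177.1 and 216.2 RPM at 2M and at 219.8, 366.1 and 162.6 RPM at 18M (log2 fold change 0.29, SE 0.29, limma adjusted p = 0.703). Weighted by reads, the mean seed viability of miR-183-5p was 64.03%, 64.05% and 64.00% at 2M and 63.62%, 63.65% and 63.63% at 18M. The groups did not overlap, which follows from the share of shifted starts given above and is not a separate measurement. For miR-96-5p (52.08% to 52.23%) and miR-182-5p (52.47% to 52.52%) all libraries lay close to the viability of their main seed.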

How the data were processed

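The authors trimmed reads (Trim Galore is named in the submitters' processing notes, its version is not given in the sources used here), collapsed them into read sequences, removed rare reads, matched them to mouse small RNAs with the SPOROS pipeline and deposited RPM per sequence and library. Rows with several labels were counted for each label. All values were whole multiples of a step (largest distance 0.0129 of a step), so whole reads were recovered. Reads were counted without molecular identifiers, so floors cover counting error only.

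Samples were grouped by the age in their titles. miRNAs, reads and seeds were tested with limma 3.58.1 in R 4.3.3 (lmFit, eBayes with trend), fitted to log2(RPM + 1) of all features that averaged 10 RPM or more. P-values were adjusted after Benjamini and Hochberg over all of these, with a threshold of 0.05. A pseudocount of 1 understates changes of low features. Checked on simulated reads changed 4-fold, 136 of 136 miRNAs were called, with 8 of 345 unchanged. The simulation gave all features the same dispersion. It therefore does not tell the power for changes as small, or spreads as wide, as those of the members. For ratios and read forms, an exact permutation test over libraries was used, two-sided. A read's start was placed by its first 15 bases against the RefSeq hairpin, and a 3′ tail was at most 3 bases. Removal of rare reads by the authors lowers the share of minor forms.

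Alternatives were pseudocounts of 0.1 and 5, other minimum levels, median-of-ratios scaling, a replicate block, limma without trend, edgeR 4.0.16, DESeq2 1.42.0, rows with a single label and leaving out each library. Use of both annotation columns, the sum without each library and likeness without 18M replicate 2 were added after seeing the data, as were the comparison of read forms with all miRNAs and the alternatives for the reads named after their values were seen. Named miRNAs and reads were the members, their 3p strands, the 3 most abundant reads of each, labels whose main read has a member's seed, the 5 miRNAs most like the cluster and members of the marker lists. The members and lists were chosen with earlier results of these data known. Replicate numbers were not treated as pairs, since same-numbered libraries correlated at -0.17, -0.22 and -0.10. Python 3.11.15, numpy 2.4.6, pandas 2.3.3 and matplotlib 3.10.9 were used.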

Additional observations from a re-analysis of the deposited data

Results flagged for a closer look

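Some reads of the cluster lay outside the rows described above. They had no miRNA label, but a second annotation column, which gives the RNA class, named the hairpin of a member. These came to 112 sequences for Mir183, 124 for Mir96 and 225 for Mir182, and to 1.48%, 1.65% and 1.80% of the labelled reads of miR-183-5p, miR-96-5p and miR-182-5p, above the limit that a count of 0 allows. Their levels were 14.9, 15.8 and 16.9 RPM at 2M and 16.2, 29.8 and 10.9 RPM at 18M for miR-183-5p, so 18M replicate 2 was again the highest. They were 45.7, 45.7 and 45.2 RPM at 2M and 43.7, 82.0 and 37.3 RPM at 18M for miR-182-5p. For miR-96-5p they ranged from 25.1 to 38.0 RPM.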

How the results depend on the processing

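No alternative brought a member, 1 of their seeds or a read named here past an adjusted p of 0.05. Leaving out a library gave log2 fold changes of -0.25 to 0.46 (miR-183-5p), 0.22 to 0.52 (miR-96-5p), -0.12 to 0.46 (miR-182-5p), 0.05 to 0.49 (seed UUGGCA), -0.27 to 0.42 (seed AUGGCA) and -0.025 to 0.56 (seed UGGCAC), always lowest without 18M replicate 2 except for miR-96-5p. Among the 3 most abundant reads, the range was -0.34 to 0.47, -0.36 to 0.17 and -0.12 to 0.72 for the 22 nt, 23 nt and shifted 21 nt reads of miR-183-5p, and -0.022 to 0.57 and -0.55 to 0.083 for the 22 nt and 25 nt reads of miR-182-5p. For the reads named after their values were seen it was 0.24 (without 18M replicate 2) to 0.79 for the 20 nt read of miR-182-5p and 0.73 to 1.13 for the tailed read of miR-96-5p. Without 2M replicate 3 the 23 nt read of miR-183-5p was at 0.02. The share of shifted starts of miR-182-5p, a difference of -0.017 points, was 0.066 with reads of at least 1 RPM only, 0.012 without 2M replicate 2, and between -0.059 and 0.014 when leaving out a library. Leaving out a library gave differences of 1.38 to 1.47 points for miR-183-5p in shifted starts and of 4.12 to 5.25 points for miR-182-5p in shorter reads. Their direction could not turn in this way, because the ages did not overlap in either share.

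The replicate numbers did not pair the libraries. With the number as a block, the fold changes of the members stayed (0.14, 0.38 and 0.21), and 1 miRNA, 0 seeds and 0 reads passed an adjusted p of 0.05 in limma, with 70, 109 and 348 at an unadjusted p under 0.05. In place of 23 miRNAs, 14 passed with median-of-ratios scaling, 15 without trend, 14 in edgeR, 46 in DESeq2, 15 with single-label rows, 2 at a mean of at least 100 RPM and 0 to 15 without a library. In place of 10 seeds, 18 passed with median-of-ratios scaling, 5 at a mean of 1 RPM or more and 0 to 38 without a library. In place of 12 reads, 20 passed at a mean of at least 1 RPM and 0 whichever library was left out. The causes were not tested. Median-of-ratios scaling moved the median log2 fold change by 0.0954, and gave 0.23 for miR-183-5p, 0.48 for miR-96-5p and 0.31 for miR-182-5p. Depth did not limit the members, but reads under 0.156 RPM were at the floor, and 3 libraries per age cannot reach an exact p below 0.1.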
